A study of Drosophila melanogaster with 2 samples.

Results

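The genes described here are the microRNA genes of Drosophila melanogaster, each a short hairpin in the annotation, together with the transcripts that carry them and the sites of CG1663-GFP around them. They were taken by name, as every annotated gene whose symbol starts with mir-, which includes let-7 (annotated as mir-let7) and bantam (annotated as mir-ban). The rule found 262 genes, of which 2 lie on ribosomal DNA sequence placed on no arm and were not analysed, so 260 of the 17683 annotated genes on the 6 chromosome arms remained. The primary transcript of the let-7 complex is annotated as lncRNA:let7C and was treated as a host transcript. The hairpins measured 50 to 174 bp, with a median of 92 bp. Hairpins on the same strand and at most 10 kb apart were joined into 203 loci, because neighbours share the same sites. Of these loci 181 held a single hairpin and 22 held 2 or more (79 hairpins), the largest with 12.

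Chromatin immunoprecipitation followed by sequencing (ChIP-seq) mapped the sites of CG1663, listed by the labels under transcription factor assays, with an antibody against GFP. Both libraries came from whole pupae labelled 24 hours, males and females pooled, of a stable transgenic line whose CG1663 protein carried GFP at its C terminus, and they are biological replicates numbered 1 and 3. There was 1 group, so no genotype, stage or treatment was compared. Whether the endogenous CG1663 gene was intact was not given, a whole pupa mixes all tissues, an untagged line was not analysed here, and the same control file served both replicates. The authors deposited 4 peak lists: 1 per replicate and 1 for the pooled alignments, of 30000 peaks each, and an IDR-thresholded list of 9657 peaks (IDR, irreproducible discovery rate, a measure of rank agreement between replicates). All 9657 were found among the 9657 strongest pooled peaks. Read totals were not given with the lists, so the depth behind each peak is unknown. A site below is the summit of an IDR-thresholded peak, its signal is the authors' own value, and its rank counts from 1 at the highest signal of the same list. Signals can be compared within a list and not between lists.

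A microRNA is cut from the hairpin of a longer primary transcript, first in the nucleus by Drosha with Pasha and then in the cytoplasm by Dicer-1, and 1 strand is loaded into Argonaute-1, where its seed near the 5′ end pairs with target mRNAs. In flies some hairpins lie in introns or exons of protein-coding genes, others in noncoding primary transcripts of their own, and clustered hairpins can share a transcript. The start of that transcript, rather than the hairpin, is where its transcription begins, and it can lie far from the hairpin. During metamorphosis ecdysone induces the let-7 complex, which helps to time the passage from juvenile to adult tissues.

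The mature products of the loci that the results turn on are printed first, read from the Release 6 genome at RefSeq's coordinates, 5′ to 3′ with T for U and the seed (bases 2 to 8) in capitals. All 260 genes had a mature product in RefSeq, 221 of them from both arms of the hairpin. The paired genes mir-279 and mir-996 share 1 seed, mir-276a and mir-276b another, mir-92a and mir-92b another, and mir-2a-1 and mir-2b-2 belong to a group of 14 genes with the seed of the mir-2 and mir-13 families.
mir-279-3p, chr3R:29215651-29215672, plus strand: tGACTAGAtccacactcattaa
mir-996-3p, chr3R:29217244-29217265, plus strand: tGACTAGAtttcatgctcgtct
mir-282-5p, chr3L:3251038-3251061, plus strand: tAGCCTCTactaggctttgtctgt
mir-275-3p, chr2L:7425853-7425875, plus strand: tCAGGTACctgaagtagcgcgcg
mir-305-5p, chr2L:7425979-7426001, plus strand: aTTGTACTtcatcaggtgctctg
mir-276a-3p, chr3L:10365281-10365302, plus strand: tAGGAACTtcataccgtgctct
mir-276b-3p, chr3L:10319846-10319867, plus strand: tAGGAACTtaataccgtgctct
mir-9a-5p, chr3L:19565140-19565162, plus strand: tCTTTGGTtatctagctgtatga
mir-92a-3p, chr3R:25646560-25646581, plus strand: cATTGCACttgtcccggcctat
mir-92b-3p, chr3R:25651457-25651478, plus strand: aATTGCACtagtcccggcctgc
mir-2a-1-3p, chr2L:19569902-19569924, minus strand: tATCACAGccagctttgatgagc
mir-2b-2-3p, chr2L:19570189-19570211, minus strand: tATCACAGccagctttgaggagc
mir-ban-3p, chr3L:642259-642281, plus strand: tGAGATCAttttgaaagctgatt
mir-100-5p, chr2L:18471445-18471466, plus strand: aACCCGTAaatccgaacttgtg
mir-let7-5p, chr2L:18472044-18472064, plus strand: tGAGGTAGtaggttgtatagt
mir-125-5p, chr2L:18472343-18472364, plus strand: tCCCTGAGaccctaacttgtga
The 101 bp around 4 summits follow on the plus strand of Release 6 (dm6). The first and the second lie at the starts of the primary transcripts of mir-279/mir-996 and of mir-282, the third is the strongest site near mir-9a, and the last lies inside the hairpin of mir-4962. Capitals mark matches to the motifs described further below.
lncRNA:CR31044 start site, chr3R:29214388-29214488: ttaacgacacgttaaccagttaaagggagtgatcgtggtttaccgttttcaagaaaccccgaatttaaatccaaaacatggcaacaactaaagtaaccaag
lncRNA:CR43626 start site, chr3L:3248874-3248974: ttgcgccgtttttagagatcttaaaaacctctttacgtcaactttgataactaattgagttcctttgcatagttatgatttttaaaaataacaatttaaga
mir-9a upstream site, chr3L:19560784-19560884: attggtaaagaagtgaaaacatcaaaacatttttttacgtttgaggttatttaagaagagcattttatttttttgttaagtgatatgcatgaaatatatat
mir-4962 hairpin site, chrX:3777355-3777455: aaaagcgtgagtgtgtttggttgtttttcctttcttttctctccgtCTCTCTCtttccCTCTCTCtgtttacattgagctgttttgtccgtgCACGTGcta

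Sites seldom lay at the hairpins themselves. Of the 260 microRNA genes 16 had a site within 500 bp, 6.15% (95% exact interval 3.56 to 9.80), or 15 of the 203 loci. The same window around the span of every gene was filled for 27.2% of genes, but genes are longer than hairpins, and for the 749 other genes of at most 200 bp it was filled for 4.94%, with 8.28% for tRNA genes and 4.46% for snoRNA genes. The share at the hairpins was therefore close to that at other short genes. The longer lists gave more. The pooled list gave 49 genes (18.8%, against 17.4% of other short genes), replicate 1 gave 42 (16.2%, against 12.7%) and replicate 3 gave 59 (22.7%, against 22.7%). Over the replicates the share averaged 19.4% ± 4.62 (SD, n = 2). In both replicates 35 genes had a summit within 500 bp, 7 had one in replicate 1 alone, 24 in replicate 3 alone, and 194 had none in any list. All intervals given cover counting error alone, and neighbouring genes can share a site.

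Within 10 kb, a distance that reaches many primary transcript starts, 157 of 260 genes had a site, 60.4% (54.2 to 66.4). This was again close to the 61.4% of other short genes. It was below the 70.2% of all genes taken by their span, the 66.9% of all genes taken by their starts, the 77.2% of tRNA genes and the 74.7% of snoRNA genes. The pooled list gave 199 genes (76.5%, as for other short genes, 76.5%), replicate 1 gave 209 (80.4%, against 74%) and replicate 3 gave 214 (82.3%, against 76.6%). The 2 replicates averaged 81.3% ± 1.36 (SD, n = 2). By locus, 134 of 203 had a site (66.0%, 59.0 to 72.5), 54 loci had exactly 1, and 24 had 5 or more. Of the 69 loci with none, 19 had no summit in any of the 4 lists.

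**Figure D1:**
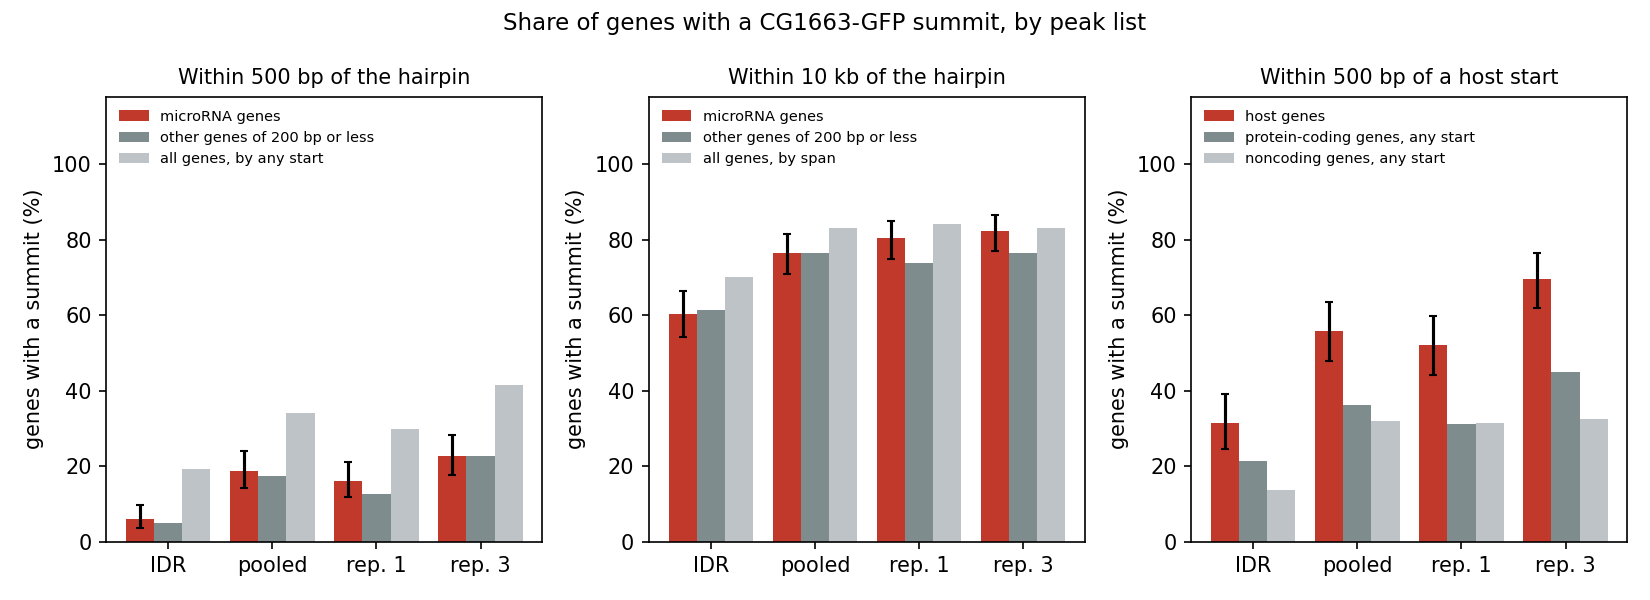
Percentage of genes with a CG1663-GFP summit (y axis) in each of the 4 peak lists (x axis), for microRNA genes within 500 bp (left) and 10 kb (middle) of the hairpin and for host genes within 500 bp of a host start (right). Red bars carry exact 95% intervals and grey bars are comparison genes; in the IDR-thresholded list the red bars stand at 6.15%, 60.4% and 31.5%.

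The 16 genes with a site at the hairpin were a mixed set, and their signals were moderate. The 17 sites had signals from 175.5 to 1550.2 with a median of 396.3, against 385.1 over all IDR-thresholded peaks, and 3 of the 17 were among the 2414 strongest peaks of the list. The strongest lay 364 bp downstream of mir-9377 on chrX:12665375-12665876, in an intron of Tis11, an RNA-binding protein gene of mRNA decay, with a signal of 1550.24 (875.41 in replicate 1 and 683.32 in replicate 3). The next lay 146 bp upstream of mir-2491 on chrX:22833519-22833909, in an intron of fog, whose product drives cell shape change in gastrulation, with 1216.23 (812.91 and 405.83). Both ranked above every other site at a hairpin in the IDR-thresholded list.

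Among the hairpins with well-studied products, bantam, a growth promoter that blocks cell death through hid, had a site 366 bp downstream of the hairpin in an exon of its primary transcript lncRNA:CR43334, with a signal of 526.43 (306.26 in replicate 1 and 219.53 in replicate 3). The mir-276a hairpin, whose product acts on dopamine receptor mRNA in memory circuits, had a site 122 bp upstream with 277.22 (152.36 and 126.54). The mir-275 hairpin, known from mosquitoes for a role in digesting blood meals, had one 416 bp upstream with 440.84 (316.12 and 123.55). At mir-279, which limits the formation of CO2-sensing neurons, sites lay 340 bp upstream (354.82) and 139 bp upstream (175.49). The latter matched a signal of 55.11 in replicate 3, and both shared 1 replicate 1 match of 176.66.

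The mir-92a and mir-92b hairpins, which share a seed and lie in jigr1, each had a site of their own. It lay 478 bp downstream of mir-92a with a signal of 898.79 (566.03 in replicate 1 and 338.48 in replicate 3) and 94 bp downstream of mir-92b with 396.25 (208.17 and 182.87). The first of these was 168 bp upstream of an internal start of jigr1, so it lay at both features. The mir-4962 hairpin, in an intron of the kinase gene Tlk, was the only 1 of the 16 with the summit inside the hairpin (399.15, with 202.55 and 195.66). At mir-966 the site (429.64), 402 bp upstream, was also 65 bp upstream of the start of the host Pfas, an enzyme gene of purine synthesis.

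The remaining sites at hairpins were at mir-4968 (626.33), mir-4914 (375.84), mir-9385 (264.29), mir-4967 (263.54), mir-280 (200.51) and mir-9370 (178.54). The mir-9385 site is on chromosome 4, which held 11 IDR-thresholded peaks in all. Of the 16 genes 14 also had a summit within 500 bp in both replicates, and all 16 had one in replicate 3. The exceptions were mir-4914 and mir-9370, where no replicate 1 peak overlapped the site. At the edge of the window, mir-275 (416 bp), mir-4968 (425 bp) and mir-92a (478 bp) were just inside, and mir-305 (501 bp), mir-274 (538 bp) and mir-2496 (548 bp) just outside.

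Further genes had a summit within 500 bp of the hairpin in another list and none there in the IDR-thresholded list. Signals of different lists are not comparable, so the 5 genes named here are a selection and not a ranking. They had the highest signals in the pooled list or a replicate list. In the pooled list these were mir-4957 (165.7) and mir-1, the muscle microRNA (164.42 at 458 bp upstream, with 76.22 in replicate 1 and 90.37 in replicate 3), followed by mir-4949 (146.07). The mir-287 gene had 106.98 in the pooled list. At mir-2496 the replicate 1 summit (234.79) lay at −481 bp, upstream of the hairpin, while the nearest summits of the IDR-thresholded and pooled lists, at −548 bp, and of replicate 3, at −515 bp, fell just outside the window. A summit was thus close to this hairpin in all 4 lists. The pooled signals at mir-4957, mir-1, mir-4949 and mir-287 lay below 170.2, the lowest signal of the IDR-thresholded list.

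Sites were also counted by the kind of transcript that carries the hairpin. Annotated genes on the same strand with a transcript spanning the hairpin, called hosts here, were found for 182 genes: 131 had protein-coding hosts, 46 noncoding hosts and 5 both kinds. The other 78 had no such host, 27 of them lying inside a gene of the opposite strand and 51 in no gene. A site within 10 kb was found for 92 of the 131 genes with protein-coding hosts (70.2%, 61.6 to 77.9), for 27 of 46 with noncoding hosts (58.7%, 43.2 to 73.0) and for 33 of 78 without a host (42.3%, 31.2 to 54.0). The median distance to the nearest site was 6093 bp, 5886.5 bp and 12007 bp in the same order. Of other short genes 61.4% had a site within 10 kb. Genes of 1 cluster are not independent, and the hostless group includes the large clusters on X and 2L described below. The noncoding group includes the 8 genes of the mir-309 to mir-6 cluster on 2R, all without a site within 10 kb. The lower share of noncoding than of protein-coding hosts therefore rests in good part on 1 locus.

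In mean number of sites the order was different: genes in noncoding hosts had 2.61 sites within 10 kb on average, against 1.85 in protein-coding hosts and 1.32 without a host. No such mean is given here for other genes. The median did not separate the hosted classes, at 1 site for noncoding and for protein-coding hosts, and was 0 without a host. Around the 5′ edge of the first hairpin, the 32 loci with noncoding hosts had 67 sites in the 10 kb upstream and 28 downstream. The 124 loci with protein-coding hosts had 128 and 99, and the 50 without a host had 43 and 28. Per bin of 1 kb, noncoding loci had 0.125 to 0.281 sites per locus upstream and 0.0 to 0.125 downstream. The mean over the 6 arms, 0.0721 per kb, lay within the range of bins on either side in the other classes. A locus whose hairpins fall into different classes counts in each. The 3 noncoding loci with most sites (mir-275, mir-282 and mir-279/mir-996) supplied 25 of the 67 upstream sites and 8 of the 28 downstream ones, and the other 29 loci had 42 and 20. Without the 3 hostless loci with most sites (mir-305, mir-317 and mir-4978), the other 47 had 25 upstream and 21 downstream, so most of the upstream excess there came from those 3. The same count for protein-coding hosts, without mir-4943, mir-4962 and mir-9377, was 117 and 82 over 121 loci.

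**Figure D2:**
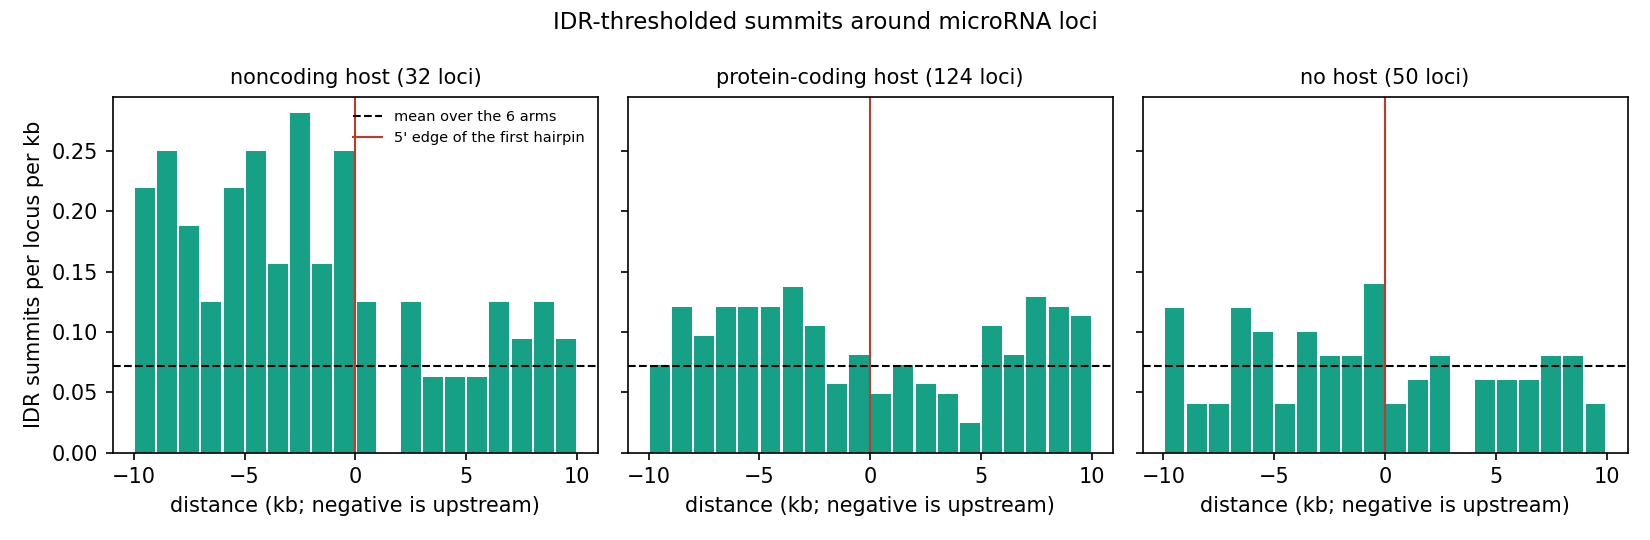
IDR-thresholded summits per locus and kb (y axis) by distance from the 5′ edge of the first hairpin (x axis, kb, upstream to the left) for loci with noncoding hosts, protein-coding hosts and no host. The dashed line is the mean over the 6 arms, 0.0721 per kb; the bars of noncoding hosts stand higher upstream than downstream.

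Starts of host transcripts held sites more often than the hairpins did. Of 165 host genes (128 protein-coding and 37 noncoding) 52 had a site within 500 bp of the start of a transcript that spans the hairpin, 31.5% (24.5 to 39.2). Among protein-coding hosts it was 41 of 128 (32.0%), against 21.5% of all protein-coding genes by any start, and among noncoding hosts 11 of 37 (29.7%, 15.9 to 47.0), against 13.7% of noncoding genes over 200 bp. Over all genes the share by any start was 19.2%. The pooled list gave 92 hosts (55.8%), against 36.3% of protein-coding and 32% of noncoding genes. Replicate 1 gave 86 (52.1%), against 31.3% and 31.6%, and replicate 3 gave 115 (69.7%), against 45.1% and 32.6%. The share of hosts averaged 60.9% ± 12.4 over the replicates (SD, n = 2).

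The number of starts has to be read beside the protein-coding share. Protein-coding hosts had 2.21 starts on average against 1.41 for all protein-coding genes. Counted at any start, 8 of 56 protein-coding hosts with 1 start had a site (14.3%) against 15.5% of all such genes, 9 of 30 with 2 starts (30.0%) against 31.3%, and 13 of 22 with 3 starts (59.1%, 36.4 to 79.3) against 47.5%. At 1 and 2 starts the protein-coding hosts were thus near other genes, and at 3 starts the background lay within the interval. Over all 128 protein-coding hosts 45 had a site at any start (35.2%). Those with more than 3 starts were not compared at an equal number of starts. Noncoding hosts with 1 start had a site in 6 of 23 cases (26.1%, 10.2 to 48.4) against 13.1%, a background that lies within the interval.

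The sites at host starts sat mostly on the upstream side. In 40 of the 52 hosts the summit was upstream of the start, and the median position was −173.5 bp. The same share for sites at other starts is not given, so this is no trait of microRNA hosts in particular. The 52 hosts had 50 distinct summits, because chk and CG45092 shared 1, as did Usp12-46 and CG7029. A shared summit counts for each of its hosts. The signals ran from 171.8 to 6435.62 with a median of 518.39 (614.78 in noncoding and 440.46 in protein-coding hosts). In 22 of the 52 hosts the site was more than 10 kb from the hairpin, and in 1, Pfas, it was within 500 bp of it. The start itself lay a median of 8663 bp from the nearest hairpin in these protein-coding hosts and 1975 bp in the noncoding ones. A summit at a spanning start was found for 51 of the 52 hosts in both replicates. The exception, named after its values were seen, was CG3860, the host of mir-1009, whose IDR-thresholded peak (426.06) overlapped no peak of either replicate. The peak at Nlg2 (325.96) overlapped none of replicate 1, and that at CG6231 (506.88) none of replicate 3. Both hosts had a different summit of that replicate within 500 bp of a spanning start. In 10 hosts a start of a different gene lay no more than 500 bp from the same summit, which therefore cannot be given to the host alone.

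The strongest of these sites by far was at lncRNA:CR31044, the primary transcript of mir-279 and mir-996, on chr3R:29213915-29214708. Its signal was 6435.62 and its rank 19 of 9657, with 3601.89 in replicate 1 (rank 25) and 2853.04 in replicate 3 (rank 14). The summit, the centre of the first window printed above, was 124 bp upstream of the transcript start and 1147 bp from the mir-279 hairpin. Next among noncoding hosts was lncRNA:CR43626, which carries mir-282, on chr3L:3248597-3249447, with 3880.2 (2168.02 and 1723.33) and the summit 416 bp upstream of the start. After it came lncRNA:Hsromega, the heat shock RNA of nuclear speckles that spans mir-4951, with 2162.61 (1236.12 and 931.79), where the start lay 20095 bp from the hairpin.

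Other noncoding transcripts with a site at the start carried well-known microRNAs. The mir-275 transcript lncRNA:CR43857 had 1020.0 (519.67 in replicate 1 and 508.09 in replicate 3) at 379 bp upstream. The transcript of mir-8, a regulator of growth and of Wingless signalling, was lncRNA:CR43650 and had 998.43 (539.02 and 454.04) at 164 bp upstream. For mir-14, a suppressor of cell death, the site at lncRNA:CR43651 had 614.78, and the replicates differed: 142.22 in replicate 1 (rank 7233) and 486.55 in replicate 3 (rank 1354). The mir-276a transcript lncRNA:CR46006 had 529.9 (437.71 and 254.57) at a start 32767 bp from the hairpin. The mir-10 gene, which lies among the Hox genes, had 182.39 (113.51 and 73.71) at the start of lncRNA:CR42651.

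Among protein-coding hosts, CG5953, which carries mir-4943 in an exon, was highest with 3704.0 (2116.83 in replicate 1 and 1591.66 in replicate 3), 382 bp upstream of the start. The spi gene, which encodes a ligand of the EGF receptor and carries mir-2a-1, mir-2a-2 and mir-2b-2 in an intron, followed with 2856.81 (1851.83 and 1001.24) at 208 bp upstream. The bun gene, of the TSC22 family of growth regulators, had 2614.92 (1562.08 and 1056.01) at a start 23489 bp from mir-967. The checkpoint kinase gene grp, host of mir-306, mir-79, mir-9b and mir-9c, had 1879.84 (976.38 and 898.02).

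The last 3 of the 10 strongest shared their site with a neighbouring start. They were MRP with mir-9382 (1861.56, shared with Pih1D1), PAPLA1 with mir-4984 (1429.26, shared with Rbsn-5) and Mob2 with mir-4968 (1066.47, shared with CG7394). All 10 had a matched peak in both replicates.

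**Figure D3:**
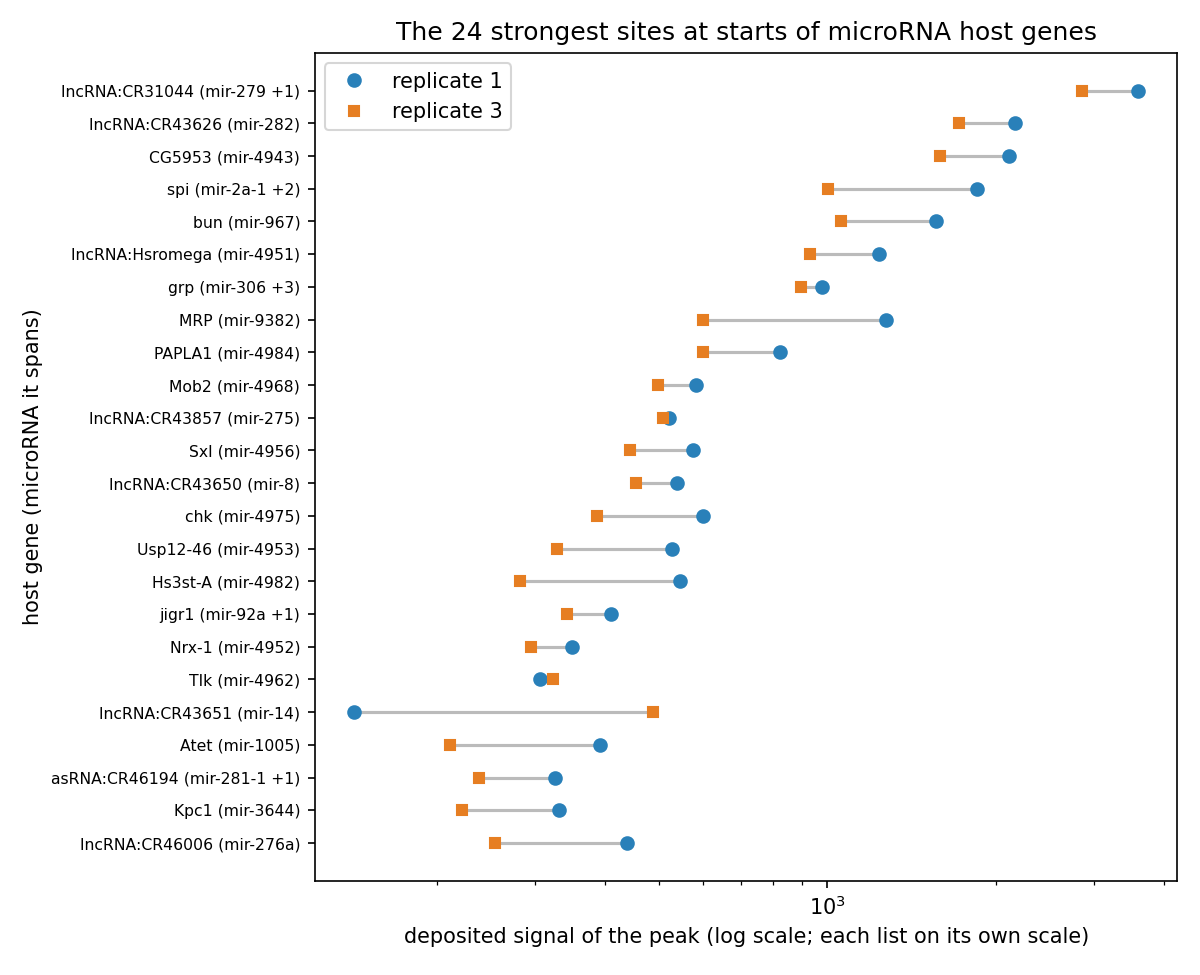
Deposited signal (x axis, log scale) of the replicate peaks matched to the strongest sites at starts of microRNA host genes (y axis, with the microRNA in brackets), circles for replicate 1 and squares for replicate 3. The lncRNA:CR31044 site is highest in both replicates, and only at lncRNA:CR43651 (mir-14) and Tlk (mir-4962) does replicate 3 lie above replicate 1, each list being on its own scale.

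The loci with most sites within 10 kb were mir-275/mir-305 and mir-282, with 12 each, and mir-4943 with 11. Then came mir-279/mir-996, mir-9377 and mir-375, a regulator of secretory cells in mammals, with 9 each. At mir-275/mir-305, where mir-305 is known for tuning Notch and insulin signalling in intestinal stem cells, the strongest of the 12 sites (2383.86, with 1380.5 in replicate 1 and 1006.71 in replicate 3) was 4989 bp upstream in an intron of the acetyltransferase gene chm. The site at the transcript start was only the third of them in signal, and 3 of the 12 summits lay in 1 peak interval. At mir-282 the strongest (4443.35, with 2381.18 and 2068.65) was 9900 bp upstream of the hairpin, outside the mir-282 transcript, and 9 of the 12 lay upstream. Over all microRNA genes, the 376 sites within 10 kb came from 361 peak intervals, so a few intervals held more than 1 summit.

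**Figure D4:**
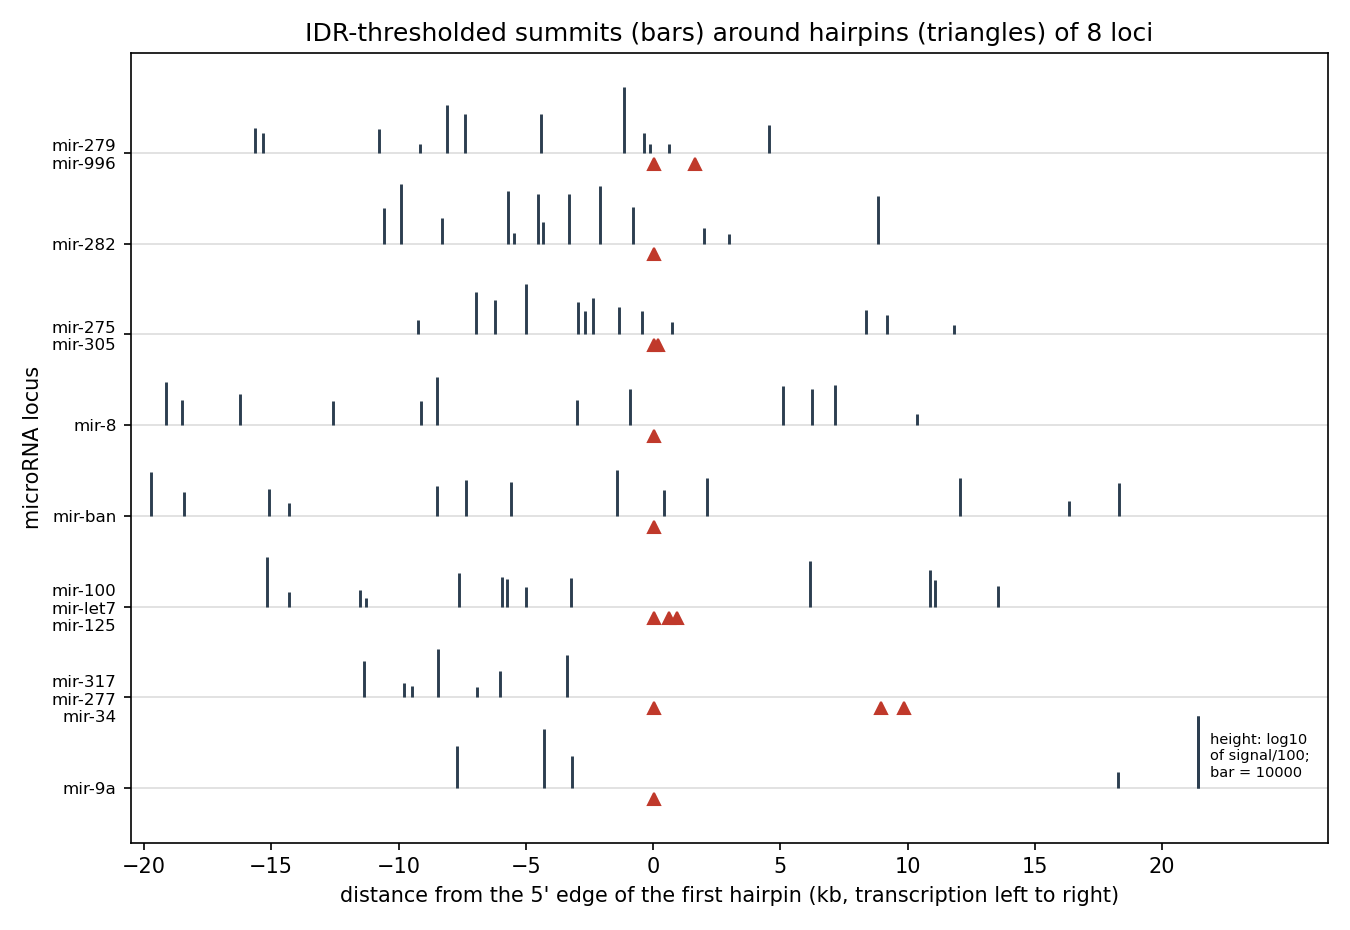
IDR-thresholded summits (bars, height on a log scale of signal) and hairpins (triangles) of 8 loci by distance from the 5′ edge of the first hairpin (x axis, kb, in the direction of transcription). Sites stand close before the mir-279 and mir-282 hairpins, while at mir-100/mir-let7/mir-125 the nearest lies 3227 bp away and at mir-317/mir-277/mir-34 all lie before mir-317.

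The let-7 complex, with mir-100, mir-let7 and mir-125 on chr2L:18471434-18472424, had 7 sites within 10 kb and none near the hairpins. The nearest was 3227 bp upstream of mir-100 (624.3, with 445.66 in replicate 1 and 185.46 in replicate 3). All 5 upstream sites lay in the intron of lncRNA:let7C, with signals from 347.23 to 862.64. The strongest of the 7 lay downstream, 5185 bp past mir-125, in an intron of CG10283, with 1792.47 (920.9 and 882.89). The start of lncRNA:let7C, 15717 bp before the first hairpin, had no summit within 500 bp in any of the 4 lists.

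At mir-317/mir-277/mir-34, where mir-34 guards against age-related decline of the brain and mir-277 governs branched-chain amino acid breakdown, all 6 sites lay upstream of mir-317. The strongest was 8451 bp away with 2148.07 (1268.18 in replicate 1 and 880.69 in replicate 3). Neither mir-277 nor mir-34 had a site within 10 kb, and their nearest lay 11920 and 11007 bp away. The start of their transcript lncRNA:CR43459 had a summit in replicate 3 and in the pooled list, and none in replicate 1 or the IDR-thresholded list.

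At mir-9a, which keeps sensory organ precursors in check through senseless, the 3 sites were upstream, the strongest (4258.75, rank 77, with 2450.1 and 1823.62) at 4297 bp in an exon of lncRNA:CR44676, 356 bp past its start. The start of lncRNA:CR45916, which carries mir-9a, had none. Around bantam 6 sites lay within 10 kb, the strongest 1431 bp upstream in an exon of lncRNA:CR43334 (1848.6, with 1021.46 and 834.62). Around mir-8 there were 7, with the strongest 8485 bp upstream (2120.08) and 3 in exons of its transcript between 5028 and 7065 bp downstream (1000.45 to 1252.71).

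Other microRNAs of known function had fewer and mostly weaker sites. The muscle gene mir-1 had 3 within 10 kb (at most 416.86) and the neuronal gene mir-124 had 2 (the stronger with 434.41, 8114 bp upstream). The mir-7 gene, which acts in photoreceptor determination and lies in HnRNP-K, had 1 (752.56), mir-184, of the female germ line, had 1 (1456.84, 8899 bp upstream), and mir-278, of energy balance, had 2 (403.76 and 296.24) plus 1 at the distant start of CG42524 (238.53). The mir-276b gene had 3 (at most 1001.09). The Hox-regulating hairpins mir-iab-4 and mir-iab-8, read from opposite strands of the same DNA, shared 1 site 5074 bp away (328.99), which matched 203.94 in replicate 1 and no peak in replicate 3.

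The 14 genes with the seed ATCACAG, mir-5 and the mir-2, mir-6, mir-11, mir-13 and mir-308 families, which are known for targeting pro-apoptotic mRNAs, had no site within 500 bp, and 10 of 14 had one within 10 kb. Over all microRNA genes the shares were 6.15% and 60.4%. The strongest were at spi starts for the mir-2a/mir-2b-2 cluster, the one given above and another of 2098.15 (1282.07 in replicate 1 and 825.27 in replicate 3) 2681 bp upstream of the hairpins. The mir-2b-1 gene had 1661.95 at 7597 bp, beside a start of the kinase gene Btk. The mir-2c/mir-13a/mir-13b-1 cluster had 537.71 at 1162 bp upstream, and mir-13b-2 had 306.64. The mir-11 host, the cell cycle regulator E2f1, had 440.46 at the start, and RpS23, host of mir-308, had 308.46. The seed ATTGCAC, shared by mir-92a, mir-92b and mir-310 to mir-313, was the other larger group, and all 6 of its genes, from 2 loci, had a site within 10 kb, against the same 60.4%.

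Clusters were not alike. Of the 22 loci with several hairpins 15 had a site within 10 kb (68.2%), against 119 of 181 single ones (65.7%). The largest, the mir-972 to mir-979 cluster of 12 hairpins on X, had none, its nearest site lay 36102 bp away, and within 10 kb each replicate list held 1 summit. The mir-982/mir-303/mir-983/mir-984 cluster on X, with 5 hairpins, had no summit in any list within 10 kb, and the same held for mir-1007/mir-2535b. On 2L, the mir-959 to mir-964 cluster of 6, whose members cycle with the circadian clock, had its nearest site 17011 bp away. On 2R, the mir-309 to mir-6 cluster of 8, which clears maternal mRNAs in the early embryo, had its nearest 12862 bp away and 2 summits of the pooled list within 10 kb. At mir-1002/mir-968 and mir-999/mir-4969 there was no IDR-thresholded site within 10 kb either. The other lists did hold summits there. For mir-999/mir-4969 they were 6 in the pooled list, 6 in replicate 1 and 5 in replicate 3, and its nearest site, at a start of the host CASK, was 10517 bp away. For mir-1002/mir-968 there were 2, in replicate 1 alone.

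By arm, X had the lowest share among the 5 large arms. There 24 of 58 microRNA genes had a site within 10 kb (41.4%, 28.6 to 55.1), against 74.3% of all genes on X. All genes were taken by their span here, which is longer than a hairpin, and no share of other short genes is given by arm. Counted by locus, 23 of 39 on X had one (59.0%, 42.1 to 74.4). On 2L it was 38 of 56 genes (67.9%; all genes 67.5%), on 2R 36 of 55 (65.5%; 67.4%), on 3L 20 of 31 (64.5%; 74.4%) and on 3R 38 of 58 (65.5%; 70.1%). The 12 hairpins of the mir-972 to mir-979 cluster and the 5 of the mir-982 cluster are on X, and each cluster counts once by locus. The X genes mir-10404-3, mir-10404-4 and mir-10404-5 lie past the last X peak of all 4 lists. They had no summit within 10 kb and count in the X shares by gene and by locus. Whether reads could be placed there is not given.

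The strongest sites near microRNA genes often belonged to the starts of neighbours. The highest within 10 kb of any locus had 6881.25 (rank 14), 7677 bp from mir-9383, at the shared promoter of Art3, an arginine methyltransferase gene, and mRpS10, a mitochondrial ribosomal protein gene. After lncRNA:CR31044 came 5380.42 near mir-1001, at the starts of CG5611 and the GTPase gene Mtl, and 4813.31 near mir-14, 232 bp upstream of CG1888 and 6572 bp from the hairpin. Then followed the mir-282 and mir-9a sites given above, 3796.92 near mir-1004 at the start of bowl, a zinc finger gene of leg patterning, the CG5953 site, 3224.02 near mir-2497 at CG31807 and 3041.63 near mir-4912 at tank and CG12194. Of the 376 sites within 10 kb, 132 (35.1%, 30.3 to 40.2) lay within 500 bp of the start of a non-microRNA gene. Such genes include the hosts themselves. The share over all IDR-thresholded sites was 30.4%.

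Sites within 10 kb of microRNA genes were about as well replicated as the rest. They made up 376 of the 9657 (3.89%), and 357 of them overlapped a peak of both replicates (94.9%, 92.2 to 96.9), against 94.8% of all. Of the 17 within 500 bp it was 15. The IDR-thresholded list was itself derived from these replicates, so high shares were partly set by that choice of peaks. The Spearman correlation between the replicates' signals, a description over sites called against the same control, was 0.874 over 357 sites and 0.851 over all 9153 matched sites. The median signal was 452.8 against 385.1 over the whole list, and 110 of the 376 (29.3%) were among its 2414 strongest peaks.

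**Figure D5:**
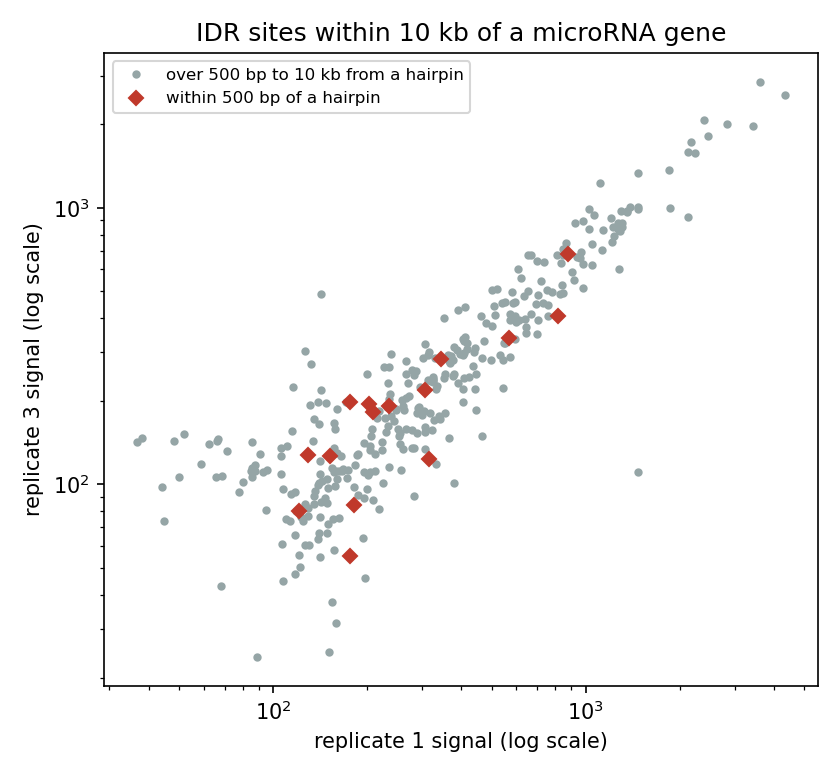
Signal in replicate 3 (y axis) against replicate 1 (x axis), both on log scales, for the IDR-thresholded sites within 10 kb of a microRNA gene that overlap a peak of both replicates. Diamonds are sites within 500 bp of a hairpin, which lie within the cloud of the others and below its upper end.

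The largest differences in rank, 3 in each direction, were at sites of low or middling signal. In the IDR-thresholded list 5 of the 6 had 177.25 to 245.71, below the median of 385.1, and the one near mir-4916 had 391.91. The site near mir-4913, at the start of the dehydrogenase gene Idh, ranked 18582 in replicate 1 and 5788 in replicate 3. The sites near mir-4916, at the starts of mxc and Larp7 (18127 and 5591), and near mir-375, at the start of drongo (15549 and 5727), moved the same way. In the other direction, sites near mir-4914 (6909 and 22691), mir-4957 at the start of Top1 (6603 and 19728) and mir-4943 (10313 and 23224) ranked higher in replicate 1. Each match was the overlapping peak with the nearest summit, and neighbouring summits within a peak could take its place.

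The windows around the sites were rich in A and T. Mean GC content within 50 bp of the summit was 32.7% for the sites within 10 kb of a microRNA gene and 32.4% for those within 500 bp, against 31.7% for all IDR-thresholded sites and 42.2% for the arms. Sites at host starts had 37.3%. The 4 windows printed above had 38.6%, 27.7%, 22.8% and 43.6% in their order.

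Of 9 known motifs searched on both strands of these windows, none is contained in another. CACACA was found in 7.45% of the 376 sites (6.01% of all IDR-thresholded sites), the GAGA factor motif GAGAGAG in 2.66% (1.55%), while ATCGAT, the core of the DREF site, was in 2.93% (2.67%). The GATA factor motif AGATAAG was in 1.60% (1.79%). The E-box CAGCTG was in 4 sites, 1.06% (2.11%), and AGGTCA, which nuclear receptors bind, was in 3, 0.798% (1.84%). The other E-box searched, CACGTG, was in 2 sites, 0.532% (0.445%). The Zelda motif CAGGTAG was in 2 sites, 0.532% (0.311%). The AP-1 motif TGACTCA was in 2 sites as well, 0.532% (0.839%). These last shares rest on few sites each. Of the printed windows the one at mir-4962 had matches, to the GAGA factor motif, as its reverse complement, and to the second of the E-boxes. A match is a description of the sequence, and no match says only that these letters are absent from the window.

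Genes of small RNA pathways were also examined, a list of 16 that holds microRNA biogenesis genes such as drosha and Dcr-1 together with Dcr-2, r2d2, AGO2 and armi, which act with other small RNAs. All but Clp-1 were matched to the annotation, and in the IDR-thresholded list 4 of the 15 had a site within 500 bp of a start (26.7%, 7.79 to 55.1), near the 21.5% of all protein-coding genes. They were r2d2, a partner of Dicer-2 in loading small interfering RNAs (1032.78, shared with Herp), AGO1, which encodes the Argonaute of microRNAs (281.61, with 154.3 in replicate 1 and 139.14 in replicate 3), Nbr, the trimmer of microRNA 3′ ends (214.3, shared with Noc2), and Ranbp21, a nuclear exporter (209.11, shared with Elys and without a replicate 1 match). The IDR-thresholded list had no site at drosha, pasha, Dcr-1, loqs, gw, Ars2, Hen1, Tailor, AGO2, Dcr-2 or armi. Replicate 1 gave 4 of the 15 (26.7%, 7.79 to 55.1), against 31.3% of protein-coding genes. Replicate 3 gave 11 (73.3%, 44.9 to 92.2), against 45.1%. The pooled list gave 7 (46.7%, 21.3 to 73.4), against 36.3%. In each list the background lay within the interval, so no list set these genes apart from other protein-coding genes.

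Of 10 genes tied to the let-7 complex, as its hormone receptor, its targets or members of the same protein families, 7 had a site at a start, against 21.5% of protein-coding genes. They have 1 to 9 starts each, and the share of all protein-coding genes with a site was 47.5% at 3 starts. The ecdysone receptor genes EcR (574.81, with 372.95 in replicate 1 and 216.87 in replicate 3) and usp (508.86, with 282.48 and 230.05, shared with CG4313) were among them. The early ecdysone gene br had 264.92, and ab, a target of let-7, had 209.18. The TRIM-NHL genes wech (757.6), brat (251.71) and mei-P26 (231.49) had one each. The let-7 target chinmo, lin-28, whose product blocks let-7 maturation in worms and mammals, and dati had none in the IDR-thresholded list.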

How the data were processed

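Anti-GFP ChIP-seq peaks of 2 biological replicates (1 group) were analysed. Per the deposited README files, the authors called peaks on dm6 for each replicate and for the pooled alignments, with 1 control file, and derived the IDR-thresholded list from these. For the aligner, peak caller, IDR program and threshold, the names were not given in the sources used here. The authors' deposited signal (column 7) ranked the peaks; the deposited −log10 q-value (column 9) is saturated and was not used for ranking; the authors' column 10, counted in bp from the start of the peak, gave the summit. Lists give no read totals, so precision comes from numbers of genes or sites.

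Genes came from Ensembl release 115 (BDGP6), without 5809 transposable elements and 481 entries of mature products. Distances were measured from the hairpin span or host transcript starts, with windows of 500 bp and 10 kb. No test was run: counts have exact (Clopper-Pearson) 95% intervals and stand beside the same count over other genes. Counting was tested on simulated data. Python 3.11.15, pandas 2.3.3, numpy 2.4.6, SciPy 1.17.1 and matplotlib 3.10.9 were used. Members, gene lists, motifs and windows were chosen with earlier results of these data known. Named were all genes with a site within 500 bp. Also named were the 10 loci with the strongest and the 5 with most sites within 10 kb (ties included), and the 10 strongest host starts. Further named were 5 genes with a summit within 500 bp only in the other lists and the 3 largest rank differences in each direction. The fixed lists and microRNAs of known function were named too. Other hosts, clusters and microRNA genes were added after their values were seen. Alternatives were the stronger 50% of peaks, the pooled list, each replicate list, other windows, peak bases for summits, distances from gene starts, a locus gap of 1 kb, other host definitions and other overlap rules. Left out were 2 microRNA genes on ribosomal DNA and Clp-1, whose symbol did not match the annotation.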

Additional observations from a re-analysis of the deposited data

How the results depend on the processing

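Counts within 500 bp depended most on the list and the window. The 16 genes with a site at the hairpin became 9 with the stronger 50% of peaks, 49 with the pooled list, 42 and 59 with the whole lists of replicates 1 and 3, 7 within 200 bp and 29 within 1000 bp. The 52 hosts became 32, 92, 86, 115 and, within 200 bp, 30. The 4 small RNA pathway genes became 1 with the stronger peaks, 7 with the pooled list, 11 with replicate 3 and 2 within 200 bp. Within 5 kb the 157 genes became 102 and the 134 loci 85. Leaving out each replicate gave 17 to 19 genes within 500 bp, 147 to 167 within 10 kb, 126 to 135 loci, 45 to 65 hosts and 3 to 4 small RNA pathway genes. The share of sites overlapping both replicates, 94.9%, was 79.3% at an overlap of 50% of both peaks, 92.0% with summits within 100 bp, 82.4% among the strongest peaks of each replicate, 88.2% for sites within 500 bp and 98.2% for the stronger 50% of sites. The causes were not tested. Every other alternative moved its count by at most 1.5 times. No paired analysis was possible because there was 1 group. Lists capped at 30000 peaks, without read totals, do not show how firmly a missing site can be read.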
